A study of Mus musculus with 48 samples.

Results

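The soleus and the gastrocnemius of mouse embryos were compared at E18.5, a stage shortly before birth. The comparison held 12 of the 48 RNA-seq libraries of the study, 6 from soleus and 6 from gastrocnemius, chosen by the stage and muscle named in the labels. All 12 came from anatomically sexed male FVB/NJ embryos with no genetic change or treatment named, and whole dissected muscles were homogenised, so every cell type of a muscle contributed RNA. The study picked its muscles for their known content of slow fibres: soleus and vastus intermedius as slow-biased, gastrocnemius and vastus lateralis as fast-biased. The vastus pair of the same embryos and the soleus and gastrocnemius of adult males of the same strain serve here only as points of reference. Each E18.5 library carried a date tag, and libraries with the same tag were treated as muscles of 1 embryo; these 6 pairs are called collections A to F. In bulk samples, fewer cells of a type and less RNA per cell cannot be told apart.

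Soleus and gastrocnemius lie together in the calf and join the heel through a common tendon. In adult rodents the soleus is rich in slow fibres, which contract with the myosin heavy chain Myh7 and its slow light chains and troponins, whereas most of the gastrocnemius is made of fast fibres with Myh2, Myh1 or Myh4. Before birth, fibres of both muscles still carry the embryonic myosin Myh3 and the neonatal myosin Myh8. Prox1 is a homeobox factor that promotes the slow programme, Sox6 represses slow genes in fast fibres, and secreted BMP and Wnt proteins act on muscle progenitors and connective tissue of the limb.

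The libraries held 21095310 to 25542574 assigned counts in soleus and 21361985 to 31243334 in gastrocnemius. Skeletal muscle markers were high in all 12 libraries: Acta1 lay between 5556 and 18773 CPM (counts divided by library size, scaled by the TMM factors of edgeR), Ttn between 4103 and 7904, and none of 8 such markers passed the test between the muscles. The labels number 6 embryos and do not say which were litter mates, so p-values measure the spread between these embryos only.

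The soleus libraries fell into separate sets that went with the date. Collections C, D and E shared a single date, while A, B and F each had their own. On the first principal component, which held 23.0% of the variance, the soleus libraries of C, D and E stood at 38.2, 24.8 and 44.4, whereas the soleus libraries of A, B and F lay at −27.7, −15.2 and −20.7 and the gastrocnemius libraries between −28.0 and 4.17. The date, the litter, the piece of muscle taken and the labelling of tubes cannot be told apart here, so whether the soleus libraries of both sets hold the same muscle is not known. Results below are therefore also given within each set, a split chosen after the data were seen. The vastus libraries of 2 collections went against their labels in slow myosin: Myh7 was 14.4 CPM in vastus intermedius and 1583 CPM in vastus lateralis of collection B, and 57.6 against 188 CPM in collection F, while in the other 4 collections vastus intermedius was the higher, at 780 to 3382 CPM against 50.9 to 241 CPM.

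At E18.5 the muscles differed in a small share of their genes. Of 15117 genes tested, 254 (1.68%) passed an adjusted p of 0.05 in edgeR's quasi-likelihood test with the collection as a block: 159 (1.05%) were higher in soleus and 95 (0.628%) lower. The same direction was seen in every collection for 249 of the 254, against 1176 of all 15117 genes tested. The ranges of both muscles were apart for 95, against 165 of all genes, and the change was over 2-fold for 81, against 277. In separate fits, C, D and E alone gave 266 calls (1.76%; 0.912% higher and 0.845% lower) and A, B and F alone 429 (2.79%; 1.5% higher and 1.3% lower). Of these, 67 were called in both with the same sign, 25.2% of the first set and 15.6% of the second. The same sign in both fits was found for 253 of the 254 and for 7713 of all genes tested; the 254 were called on these same libraries, so this sign is no independent check. Without the block 64 genes were called, all among the 254, and the fit of all 24 E18.5 libraries called 101, of which 81 were among them.

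**Figure D1:**
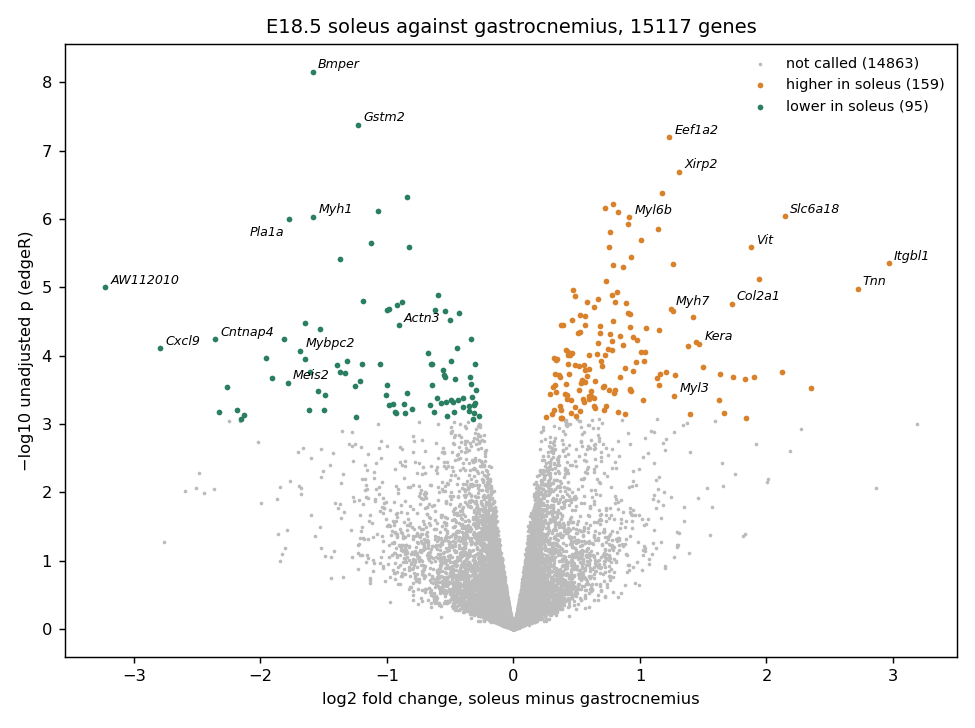
Each point is a gene: log2 fold change of soleus against gastrocnemius (x axis) and −log10 of the unadjusted edgeR p (y axis), with the 159 higher and 95 lower genes coloured. Bmper has the smallest p, and Itgbl1 and AW112010 lie at the ends of the called genes, at 2.96 and −3.23.

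The 15 genes that rose most in soleus were led by Itgbl1 and Tnn. Itgbl1, a secreted protein related to integrin beta chains, ranged from 1.66 CPM through a median of 8.02 to 41.3 CPM in soleus and from 0.685 through 0.985 to 2.05 CPM in gastrocnemius. The ranges overlapped, but soleus was higher in 6 of 6 collections, by 2.96 ± 0.34 on the log2 scale (SE; edgeR adjusted p = 0.0026), and the highest soleus library was collection C. Tnn, the matrix glycoprotein tenascin N, lay between 2.11 and 6.61 CPM in soleus and 0.273 and 1.10 CPM in gastrocnemius, with no overlap (2.72 ± 0.35, edgeR adjusted p = 0.0050). Gsc, the homeobox factor goosecoid, was also apart, at 1.69 to 5.49 against 0.389 to 1.23 CPM. Slc6a18, an amino acid transporter, rose by 2.14 ± 0.21, Pcolce2, which helps to cut procollagen, by 1.94 ± 0.24, and the matrix protein Vit by 1.87 ± 0.21. Grik1, Cnksr1, Slc14a1, Cpz and Kazald1 made up the rest of the 15 with the largest rise besides Col2a1, Acan, Kera and Alx4, described below.

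The 15 genes that fell most were led by AW112010 and Cxcl9. AW112010 had 0 to 0.383 CPM in soleus, under 10 counts in each library, and 0.874 to 4.12 CPM in gastrocnemius, with no overlap (−3.23 ± 0.41, edgeR adjusted p = 0.0049). Cxcl9, a chemokine induced by interferon gamma, was at 0.246 to 0.527 CPM in 5 soleus libraries and 3.01 CPM in that of collection A, against 2.73 to 5.82 CPM in gastrocnemius (−2.79 ± 0.45). Its fall was called in collections C, D and E alone (−3.65) and not in A, B and F (−2.02, adjusted p = 0.11). Cntnap4, a neuronal cell adhesion protein, fell by 2.36 ± 0.37 and the collagen Col19a1 by 2.13 ± 0.45. The lipase Pla1a, with ranges apart, fell by 1.77 ± 0.18. Pou3f4, Dgkk, Cck, Tmem232, Shisa9, Slitrk1, Tdrp and A2m also belong to the 15 with the largest fall, as do Meis2 and Mybpc2, described below. Outside these 15, the glutamate receptor subunit Grik3 fell by 1.37 ± 0.16, also with ranges apart.

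The smallest p-values belonged to genes with little spread between collections. Bmper (mm10 chr9:23223076-23485215), a secreted protein that binds BMPs and tunes their activity, ranged from 18.6 through a median of 25.8 to 29.5 CPM in soleus and from 67.4 through 75.2 to 76.0 CPM in gastrocnemius. Its fall of 1.59 ± 0.096 (edgeR adjusted p = 0.000106) was 1.60 in C, D and E and 1.57 in A, B and F. Named after their values were seen, the 3 genes next in order of p were Gstm2, a glutathione transferase, at −1.23 ± 0.089, Eef1a2, the translation elongation factor of mature muscle and neurons, at 1.23 ± 0.092, and Xirp2, an actin-binding protein of the contractile apparatus, at 1.31 ± 0.11. Gstm1, a close copy of Gstm2 with which reads can be shared, was also lower (−0.84 ± 0.077).

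Promoters of the leading genes are shown because the design asked for those at the ends of the list, together with those of the slow genes Myh7 and Myl3, added afterwards. RefSeq (GRCm38.p6) gave a promoter for 65 of the 84 genes named in the comparison, and none of Slc6a18 or Cntnap4, both among the leading 3 of their direction. Each run holds 250 bases before and 50 after a start, 5′ to 3′ on the gene's strand, with every E-box, CANNTG, in capitals; the letters read the same on both strands. The runs lie at chr14:123659890-123660189 (+ strand), chr1:160153526-160153825 (− strand), chr19:11050517-11050816 (− strand), chr5:92328030-92328329 (− strand), chr14:54994577-54994876 (− strand, the outer of 2 starts) and chr9:110763428-110763727 (+ strand).
Itgbl1: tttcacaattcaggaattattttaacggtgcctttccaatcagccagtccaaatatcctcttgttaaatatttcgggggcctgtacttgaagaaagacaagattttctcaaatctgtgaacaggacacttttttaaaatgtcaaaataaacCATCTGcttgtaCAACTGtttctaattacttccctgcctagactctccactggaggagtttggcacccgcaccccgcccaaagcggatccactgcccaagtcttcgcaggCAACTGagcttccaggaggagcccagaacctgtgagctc
Tnn: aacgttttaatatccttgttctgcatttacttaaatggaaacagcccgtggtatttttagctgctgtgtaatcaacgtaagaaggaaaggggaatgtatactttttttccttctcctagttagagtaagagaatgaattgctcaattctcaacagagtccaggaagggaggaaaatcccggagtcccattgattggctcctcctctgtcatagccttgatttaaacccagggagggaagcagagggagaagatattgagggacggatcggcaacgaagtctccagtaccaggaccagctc
AW112010: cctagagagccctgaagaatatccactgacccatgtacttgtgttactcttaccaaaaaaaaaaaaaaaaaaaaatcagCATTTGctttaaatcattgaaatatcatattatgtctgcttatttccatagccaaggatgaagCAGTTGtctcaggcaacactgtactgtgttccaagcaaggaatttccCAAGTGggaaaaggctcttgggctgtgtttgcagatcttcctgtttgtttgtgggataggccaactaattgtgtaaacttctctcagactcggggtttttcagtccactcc
Cxcl9: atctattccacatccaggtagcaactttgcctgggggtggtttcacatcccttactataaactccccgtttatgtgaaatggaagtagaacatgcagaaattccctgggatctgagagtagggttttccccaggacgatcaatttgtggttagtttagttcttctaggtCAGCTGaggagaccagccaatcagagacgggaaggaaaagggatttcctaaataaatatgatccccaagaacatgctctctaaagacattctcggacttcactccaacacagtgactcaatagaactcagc
Myh7: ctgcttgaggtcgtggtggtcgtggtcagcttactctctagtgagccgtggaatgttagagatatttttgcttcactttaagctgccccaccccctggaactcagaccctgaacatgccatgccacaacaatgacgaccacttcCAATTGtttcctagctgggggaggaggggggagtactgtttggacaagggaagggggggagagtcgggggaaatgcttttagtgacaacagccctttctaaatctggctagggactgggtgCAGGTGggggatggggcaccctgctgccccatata
Myl3: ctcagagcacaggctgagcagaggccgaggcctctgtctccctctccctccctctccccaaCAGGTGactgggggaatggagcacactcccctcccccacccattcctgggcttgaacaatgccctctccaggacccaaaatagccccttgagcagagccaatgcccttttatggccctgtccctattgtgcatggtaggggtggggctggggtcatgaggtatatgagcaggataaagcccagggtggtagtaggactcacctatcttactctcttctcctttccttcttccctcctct
Itgbl1 and AW112010 each held 3 E-boxes, Myh7 held 2, Myl3 and Cxcl9 each held 1 and Tnn none; of 32851 RefSeq promoters of this length, 72.3% held at least 1. The core of NFAT sites, GGAAA on either strand, occurred 4 times in Tnn, 3 times in AW112010 and Cxcl9, 2 times in Myh7 and once in the others, and 61.3% of all promoters held it. The core of MEF2 sites and the MEF3 site TCAGGTT were searched on both strands and were in none of the 6 runs; 3.69% and 4.07% of all promoters held them.

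Slow contractile genes were already higher in soleus before birth. Of 17 slow sarcomere genes, all of them tested, 9 rose and none fell, with a median log2 fold change of 0.51 against −0.006 over all genes tested. The slow myosin heavy chain Myh7 (mm10 chr14:54970684-54994626) ranged from 639 through a median of 1292 to 3371 CPM in soleus and from 347 through 689 to 795 CPM in gastrocnemius. Soleus was higher in 6 of 6 collections, by 2.37-fold (1.24 ± 0.17 on the log2 scale, edgeR adjusted p = 0.0065), although the soleus library of C lay below 4 of the gastrocnemius libraries of other collections. The slow regulatory light chain Myl2 rose by 1.28 ± 0.23, the slow essential light chain Myl3 by 1.27 ± 0.25, the slow troponins Tnnc1, Tnnt1 and Tnni1 by 0.78 ± 0.13, 0.69 ± 0.10 and 0.42 ± 0.082. Myh7b, Csrp3 and Myoz2, the last 2 proteins of the Z-disc, completed the 9. Markers of muscle spindles, the stretch sensors whose fibres also contain slow myosin, summed to 385 to 892 CPM in soleus and 250.5 to 440 CPM in gastrocnemius. The sum was higher in soleus in 6 of 6 collections. It is not separate from the slow genes, since Myh7b is on both lists and averaged 275 CPM in soleus and 160 CPM in gastrocnemius. Myh6, a further member of the spindle list, averaged 193 and 83.1 CPM. The part of the spindle markers in the slow result was not tested.

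The slow difference was larger outside the shared date. Myh7 rose by 1.72 in A, B and F and by 0.77 in C, D and E, and the difference of −0.95 ± 0.15 between the sets passed its own test (edgeR adjusted p = 0.021). Myl3 soleus levels were 433, 658 and 377 CPM in A, B and F and 106, 205 and 195 CPM in C, D and E. Its difference between sets was −1.47 ± 0.15 (edgeR adjusted p = 0.0017), while Tnnt1 at −0.37 (0.33) and Tnni1 at −0.17 (0.71) did not pass. Slow genes called numbered 7 in C, D and E alone and 9 in A, B and F alone, 4 without collection F, 5 without B and 5 without D. None of the 17 was called without the block (Myh7 1.39, adjusted p = 0.085) or in the fit of all 24 libraries (Myh7 1.25, adjusted p = 0.61).

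**Figure D2:**
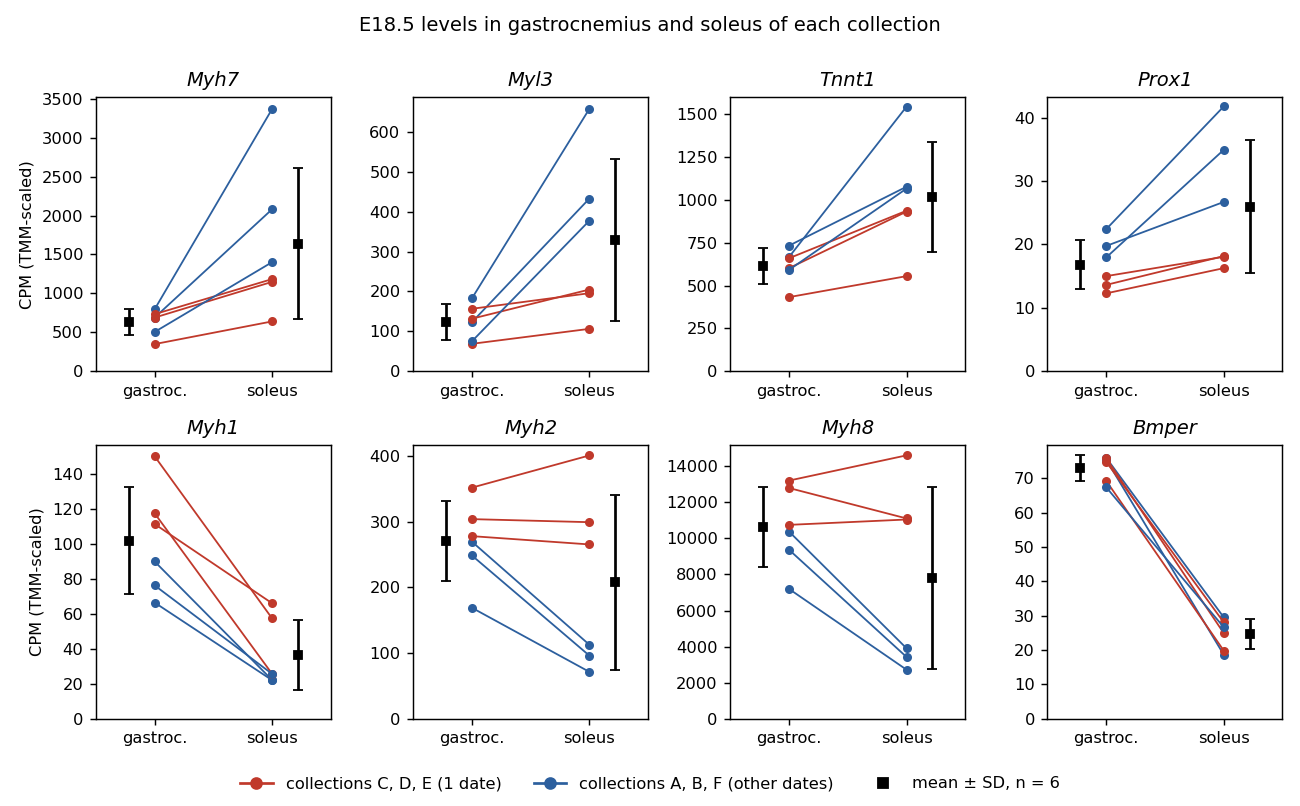
TMM-scaled CPM (y axis) in gastrocnemius and soleus for 8 genes; each line joins the libraries of 1 collection, red for C, D and E and blue for A, B and F, and squares give mean ± SD (n = 6). Myh7 and Bmper move 1 way in all 6 collections, whereas Myh2 and Myh8 fall in A, B and F and stay near level in C, D and E.

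Of the 17 fast sarcomere genes, all tested, 3 fell and none rose, and the median was −0.25. Myh1, the heavy chain of fast type 2X fibres, ranged from 21.98 through a median of 25.6 to 66.0 CPM in soleus and from 66.4 through 100.6 to 150 CPM in gastrocnemius. The ranges only just missed each other, and within collections soleus was lower in 6 of 6 (−1.59 ± 0.16, edgeR adjusted p = 0.0011), at −1.43 in C, D and E and −1.74 in A, B and F. The fast myosin-binding protein Mybpc2 fell by 1.69 ± 0.27 and the fast alpha-actinin Actn3 by 0.91 ± 0.13. Myh2, Myh4 and the parvalbumin gene Pvalb had values of −0.63 ± 0.22, −0.70 ± 0.23 and −1.14 ± 0.44, with adjusted p between 0.20 and 0.31. In collections A, B and F alone 9 fast genes were called lower, and the list's median was −0.69, against 3 called and a median of 0.093 in C, D and E alone. Without the block, and also in the fit of all 24 libraries, Myh1 alone of the list was called.

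Developmental myosins dominated both muscles. Per kilobase of transcript, Myh3 reached 2030 CPM in soleus and 1732 in gastrocnemius and Myh8 1269 and 1727, whereas Myh7 reached 270 and 103 and Myh1 6.05 and 16.9. Myh3 itself (0.21 ± 0.093, adjusted p = 0.37) and Myh8 (−0.72 ± 0.24, adjusted p = 0.22) did not pass. Of the 12 genes of the developmental sarcomere list, 2 rose, Myl6b, a light chain of embryonic and slow muscle (0.92 ± 0.091), and Myh6, the alpha-cardiac heavy chain that is also made in spindle fibres (1.15 ± 0.17). The heavy chains of this family are near copies of each other, and the sources used here do not say how reads shared between them were counted.

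As shares of the summed counts of 6 myosin heavy chains, Myh7 made up 8.00% ± 4.89 in soleus and 2.81% ± 0.587 in gastrocnemius (SD, n = 6 each), and Myh3 57.3% ± 12.3 and 47.3% ± 5.90. Myh8 made up 33.3% ± 16.3 of the sum in soleus and 47.7% ± 5.90 in gastrocnemius. Myh2 (0.883% against 1.21%), Myh4 (0.353% against 0.512%) and Myh1 (0.161% against 0.460%) were also smaller shares in soleus. Each of the 6 shares moved the same way in 6 of 6 collections (exact two-sided sign-flip permutation test, p = 0.03125, the smallest that 6 pairs allow, and 0.03125 after adjustment over 6 genes). The shares sum to 100 and so are not independent. In soleus the Myh8 share was 19.4%, 17.3% and 18.99% in A, B and F and 52.3%, 45.1% and 46.7% in C, D and E, so that the size of its shift differed by date even though its direction did not. With log2 ratios of CPM in place of shares none of the 6 passed, an outcome that the adjustment fixed. Myh7 and Myh1 still moved 1 way in 6 of 6 collections, but Myh2, Myh4 and Myh8 did not. With so few genes at the smallest p, the adjustment over 6 genes lets none pass.

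Among 40 regulators of fibre type, 3 rose and none fell, with a median of −0.031. Prox1 ranged from 16.3 to 41.8 CPM in soleus and from 12.3 to 22.4 CPM in gastrocnemius and rose by 0.57 ± 0.10 (edgeR adjusted p = 0.023). Esrrb and Esrrg, nuclear receptors related to the oestrogen receptors and known for driving oxidative genes, rose by 0.98 ± 0.15 and 0.84 ± 0.13; the Esrrb ranges did not overlap. Sox6 was 26.9, 35.1 and 31.4 CPM in the soleus of A, B and F and 67.8, 65.0 and 76.9 CPM in that of C, D and E, against 67.0 to 88.4 CPM in gastrocnemius. It was called lower in A, B and F alone (−1.24, edgeR adjusted p = 0.00087), not over 6 collections (−0.70 ± 0.18, 0.091), and differed between the date sets (1.05 ± 0.14, 0.0074). Tbx15, a factor of fast glycolytic fibres, had a value of 0.00 ± 0.087 and did not pass (adjusted p = 0.997). None of the 3 calls held without collection B, and 1 each without D and without F.

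Calls in the metabolic lists were 0 of 32 oxidative phosphorylation, 2 of 26 fatty acid oxidation and 2 of 30 glycolysis and glycogen genes. Of all 15117 genes tested, 254 (1.68%) were called. None of 32 oxidative phosphorylation genes passed in edgeR, although 31 had a positive value and the median was 0.15. Of the 32, 17 had an unadjusted p under 0.05 in edgeR, against 1934 of all 15117 genes tested. DESeq2 called 2 and limma-voom 0. Of 26 fatty acid oxidation genes, 2 rose: Pdk4, the kinase that shuts pyruvate dehydrogenase (0.65 ± 0.12), and Fabp3, the fatty acid carrier of heart and slow muscle (0.56 ± 0.096). Of 30 glycolysis and glycogen genes, Ldhb, the lactate dehydrogenase chain of oxidative tissue, rose by 0.67 ± 0.10 and Fbp2, the muscle form of fructose bisphosphatase, fell by 1.21 ± 0.22.

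Tendon genes were higher in the soleus samples. Of 12 tendon markers tested, 6 rose and all 12 had a positive value, with a median of 0.92; of the 13 listed, Egr2 was below the count filter. Kera, keratocan, a small proteoglycan of collagen fibrils, ranged from 80.0 through a median of 125.9 to 475 CPM in soleus and from 21.3 through 56.2 to 113 CPM in gastrocnemius, highest in collection C of both muscles. It rose by 1.47 ± 0.23 (edgeR adjusted p = 0.012). Fibromodulin, Fmod, rose by 1.16 ± 0.21, Cilp2 by 0.95 ± 0.14, Col11a1 by 0.92 ± 0.14, tenomodulin, Tnmd, by 0.92 ± 0.17 and Mkx, a homeobox factor of tendon cells, by 0.81 ± 0.11. Scx, the earliest factor of the tendon lineage, was at 0.37 ± 0.11 (adjusted p = 0.16). The summed level of the list was higher in soleus in 6 of 6 collections, at 1144 to 2325 against 625 to 1483 CPM. Called members numbered 7 in C, D and E alone, 4 in A, B and F alone, 3 without collection B, and none without the block or over all 24 libraries.

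Some cartilage and bone markers were also higher. Of 13 tested, from 20 listed, 3 rose and none fell, where 1.05% of all genes tested rose. A positive value was seen for 9 of the 13, and the median was 0.83. Col2a1, the main collagen of cartilage, ranged from 21.7 through 54.9 to 127 CPM in soleus and from 5.11 through 17.6 to 42.0 CPM in gastrocnemius (1.72 ± 0.23, edgeR adjusted p = 0.0059). Acan, the aggregating proteoglycan of cartilage, rose by 1.42 ± 0.20, and Ctsk, the collagen-cutting protease of osteoclasts, by 0.72 ± 0.069 with ranges apart. Sox9, the regulator of cartilage cells, was at −0.13 ± 0.14 (adjusted p = 0.80), and Runx2, a regulator of bone cells, at 1.27 ± 0.29 (0.065). Ibsp, bone sialoprotein, was under the filter: its soleus levels were 0.193, 0.239, 1.23, 3.11, 14.2 and 13.9 CPM in A to F, and no gastrocnemius library exceeded 0.0895 CPM. Mmp13 was at 0 in every gastrocnemius library. Summed, the markers lay between 129 and 310 CPM in soleus and between 66.8 and 141 CPM in gastrocnemius, and were higher in soleus in 6 of 6 collections. The part that tissue next to the muscle has in the matrix genes was not tested.

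Markers of most other cell types were not called. In 9 lists, with 111 members tested, none passed in edgeR. These lists were put together because they held no call, so that 0 follows from the choice and is only a description. Of all 15117 genes tested 254 passed (1.68%), a share at which few calls would fall among 111. Marker lists that held a call are given apart from these 9. The lists were those of endothelial, pericyte and smooth muscle, leukocyte, erythroid, Schwann cell and adipocyte markers and of satellite cell, cell cycle and immediate early genes. Of the 111, 26 had an unadjusted p under 0.05 in edgeR, against 1934 of all genes. DESeq2 called 8 and limma-voom 1, against 577 and 290 of all genes. All 5 erythroid markers tested were positive, with a median of 0.58 and summed levels of 141 to 298 against 88.4 to 317 CPM. Immediate early genes were positive for 13 of 14, with a median of 0.35 and a summed level higher in soleus in 6 of 6 collections, at 325 to 602 against 276 to 386 CPM. Pericyte and smooth muscle markers were positive for 2 of 12 (median −0.28) and endothelial markers for 2 of 14 (−0.10), and the medians of the other 5 lists lay between −0.17 and −0.014. What part these lists have in the other results was not tested. Of 5 skin markers tested, Epcam rose (1.83 ± 0.33, from 0.267 ± 0.151 to 0.967 ± 0.555 CPM, SD, n = 6), while the keratins Krt5, Krt14 and Krt15 averaged under 0.2 CPM in both muscles. Of 13 fibroblast markers tested, Tcf7l2 alone was called and fell by 0.40 ± 0.078, while 7 had a positive value and the median was 0.12. In A, B and F alone 4 of them were called higher and 0 lower, and in C, D and E alone 1 higher and 2 lower. Among 28 matrix genes Lox, the collagen cross-linking enzyme, and the proteoglycan Bgn rose by 0.54 ± 0.099 and 0.51 ± 0.077, and Col6a6 fell by 0.62 ± 0.086. Of 9 muscle spindle markers 3 rose: Myh6 and Myh7b, named above, and Etv4, a factor also active at the neuromuscular junction (0.61 ± 0.12). All 9 had a positive value, with a median of 0.61. Of the imprinted and insulin-like growth factor genes, Peg10 fell, by 0.32 ± 0.069.

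**Figure D3:**
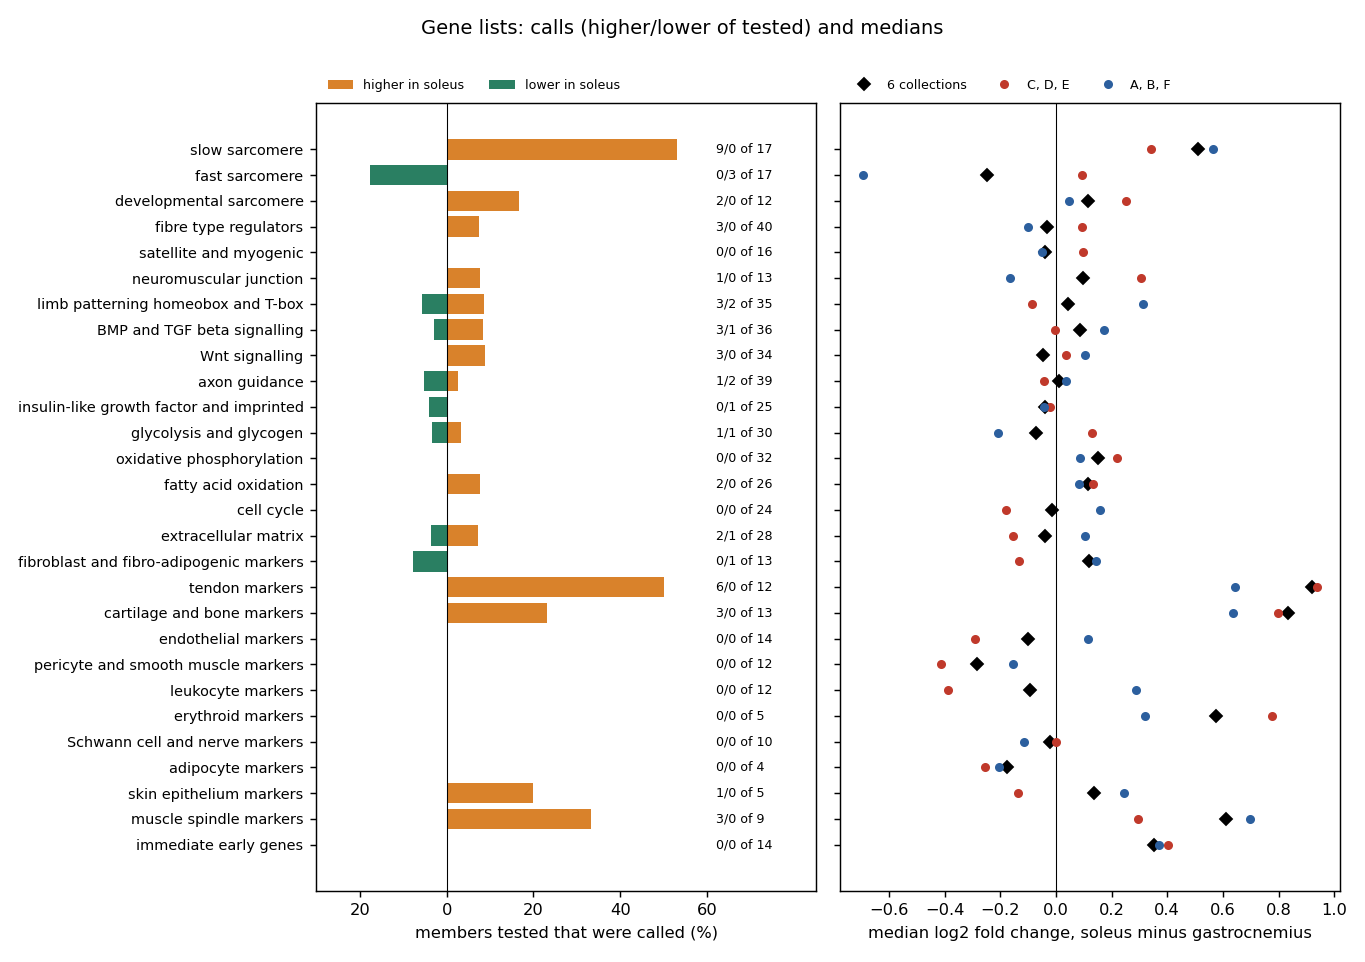
Left, share of tested members of each gene list called higher (orange) or lower (green) in soleus, with the counts beside the bars; right, median log2 fold change over 6 collections (diamonds), over C, D and E (red) and over A, B and F (blue). Slow sarcomere and tendon lists have 9 of 17 and 6 of 12 members higher, and the fast sarcomere median is −0.69 in A, B and F and 0.093 in C, D and E.

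Limb patterning factors changed both ways. Of 35 tested, 3 rose and 2 fell. Pitx1, the factor that gives the hindlimb its identity, ranged from 21.3 through 29.9 to 40.7 CPM in soleus and from 11.9 through 13.96 to 19.8 CPM in gastrocnemius, with no overlap (1.01 ± 0.16, edgeR adjusted p = 0.014). The homeobox factor Alx4 rose by 2.83-fold. Meis2 and Shox2, homeobox factors of the proximal limb, fell by 1.79 ± 0.33 and 1.55 ± 0.30. Meis2 was 9.75, 5.55 and 9.20 CPM in the soleus of A, B and F, and 1.48, 3.52 and 2.26 CPM in that of C, D and E, all below the 12.9 to 21.5 CPM of gastrocnemius. Shox2 was 16.5 CPM in the soleus of A, above 4 of the 6 gastrocnemius libraries, and 2.21 to 5.95 CPM in the other 5. In the date sets alone, 4 rose and 5 fell in C, D and E, and 9 rose and 1 fell in A, B and F. No member was called lower without the block or without collection B, D, E or F, and 1 was without C; 2 or 3 members rose in each of these fits.

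A few genes of the BMP and Wnt pathways rose in soleus, 3 of each, and Bmper fell. As a whole the lists leaned little: 24 of 36 BMP and TGF beta genes were positive (median 0.086) and 16 of 34 Wnt genes (median −0.047). Of 36 BMP and TGF beta genes, the ligands Bmp7 and Bmp4 rose by 0.93 ± 0.18 and 0.45 ± 0.090, and so did Chrd, chordin, which binds BMPs outside the cell (0.57 ± 0.10). Bmp4 ranged from 37.3 to 48.5 CPM in soleus and from 23.5 to 35.8 CPM in gastrocnemius, and Chrd from 28.2 to 34.95 against 16.7 to 25.3 CPM, both without overlap. In C, D and E alone no member of this list was called higher, against 6 in A, B and F. Without collection B 0 members were called higher, and without the block 1 was. Of 34 Wnt genes, 3 rose and none fell. Fzd10, a Wnt receptor, lay at 31.4 to 49.1 CPM in soleus and 17.5 to 25.1 CPM in gastrocnemius (0.87 ± 0.10, edgeR adjusted p = 0.0027), and Axin2, a common target of Wnt signals, at 39.7 to 60.5 against 16.9 to 34.4 CPM (0.76 ± 0.11). Dkk3, a secreted protein of the Dickkopf family, rose by 0.82 ± 0.11. An antisense gene, Fzd10os, overlaps Fzd10, and no source used here names the strand setting of the counting, so their reads cannot be told apart. Among 39 axon guidance genes, Slit2, a repellent for growing axons, fell by 1.25 ± 0.23, Sema5a fell by 0.44 ± 0.087 and Sema4d rose by 0.43 ± 0.074.

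For some genes the difference between the muscles was not the same on different dates. A test of the soleus to gastrocnemius difference in C, D and E less that in A, B and F called 134 of 15117 genes (0.886%), 87 (0.576%) higher and 47 (0.311%) lower. Of the 134, 5 belonged to the 254, and 110 had opposite signs in the separate fits, which this choice of genes favours. Some of these differed little in 1 fit, such as Ppp1r14c, at 0.070 in C, D and E and −1.81 in A, B and F. Of all 15117 genes, 7713 had the same sign in both fits, and 4 were called in both with opposite signs. The test was added after the split was seen, and the genes here are among the 25 with the smallest p. The date sets of soleus did not overlap for 129 of the 134 genes and those of gastrocnemius for 26, against 3601 and 1817 of all 15117 genes tested. The 134 were chosen for a difference between these sets, so these counts are a description. Barx2 (mm10 chr9:31846044-31913285), a homeobox factor of muscle progenitors, was 72.9, 91.9 and 87.8 CPM in the soleus of A, B and F and 2.26, 6.90 and 2.94 CPM in that of C, D and E, with 12.4 to 22.8 CPM in all gastrocnemius libraries. It was therefore above gastrocnemius in the first set (1.89 ± 0.11) and below it in the other (−2.20 ± 0.27), a difference of −4.07 ± 0.30 (edgeR adjusted p = 0.00025). Isl1, a LIM homeobox factor, had 71, 28 and 48 counts in the soleus of A, B and F and 0, 1 and 0 counts in that of C, D and E, with 2.37 to 4.83 CPM in gastrocnemius. Its value was negative in both sets, at −0.92 in A, B and F and −7.58 in C, D and E.

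Other regulators also stood apart between the date sets in soleus. Among these Meis1, unlike Barx2, did not change sign: its value was −2.09 in C, D and E and −0.23 in A, B and F. Sim2, a factor of the bHLH-PAS family, was at 45.9 to 52.6 CPM in the soleus of A, B and F and 3.61 to 6.68 CPM in that of C, D and E (difference −3.29 ± 0.25). Tbx18, a T-box factor, was at 38.96 to 47.8 and 6.50 to 10.2 CPM (−2.26 ± 0.23), Meis1 at 19.7 to 22.2 and 4.00 to 6.19 CPM (−1.86 ± 0.21), and follistatin, Fst, which binds activins and myostatin, at 65.5 to 85.2 and 12.3 to 26.2 CPM (−2.18 ± 0.29). Six2, a homeobox factor, ran the other way, at 2.01 to 5.97 CPM in A, B and F and 15.4 to 24.3 CPM in C, D and E (2.16 ± 0.27). The neonatal myosin Myh8 and, from the fast sarcomere list, Myh4, Myh2, Casq1 and Myoz1 had differences between 1.33 and 1.63. In C, D and E their values were −0.03 to 0.21, and in A, B and F −1.43 to −1.30. Without collection E 22 genes were called, without B 35, without A 46, without D 76 and without F 243.

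**Figure D4:**
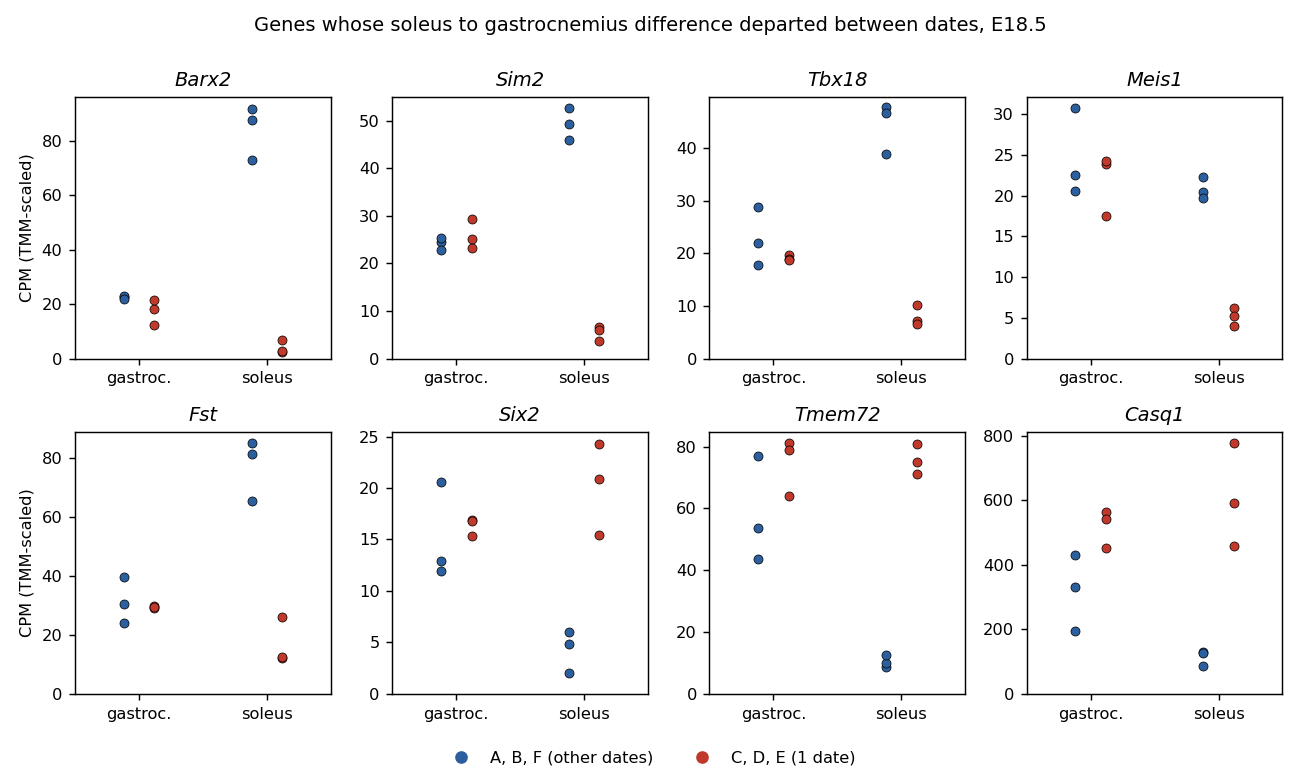
TMM-scaled CPM (y axis) of 8 genes in each gastrocnemius and soleus library, blue for collections A, B and F and red for C, D and E. In soleus the sets lie apart for all 8 genes, as for Barx2 at 72.9 to 91.9 against 2.26 to 6.90 CPM.

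Set against the vastus pair of the same embryos, few differences of the calf pair passed a test of departure. The soleus to gastrocnemius difference less the vastus intermedius to vastus lateralis difference passed for 2 of 15751 genes (0.0127%), with 922 at an unadjusted p under 0.05 in edgeR and 43 called in DESeq2. Pla1a averaged 2.08 ± 0.456 CPM in soleus, 7.03 ± 0.772 in gastrocnemius, 3.59 ± 0.643 in vastus intermedius and 3.92 ± 1.52 in vastus lateralis (SD, n = 6 each; difference −1.70 ± 0.25, edgeR adjusted p = 0.027). Grik3 averaged 4.48 ± 1.26, 11.5 ± 2.27, 3.96 ± 1.78 and 2.27 ± 0.785 CPM in the same order (−2.11 ± 0.33, 0.030). Bmper fell in both pairs, by 1.59 in the calf and by 1.29 in the thigh. The vastus pair itself had 4 genes called (0.0254%), of which 2 were among the 254 of the calf pair. It had 222 without collection B and 472 without B and F, the collections whose Myh7 went against the vastus labels. Without B the test of the difference called 8 genes, without B and F 14, without D 1, and without A, C, E or F none.

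Adult soleus and gastrocnemius differed in 7918 of 13585 genes (58.3%; 30.9% higher and 27.4% lower). Of the 159 genes higher at E18.5, 138 were tested in adults, where 90 were called higher and 14 lower. Of the 95 lower genes 78 were tested, with 19 called lower and 25 higher. The 109 that agreed in sign were 42.9% of the E18.5 genes and 1.38% of the adult genes. Slow genes were further apart in adults: Myh7 by 5.89 ± 0.95, Tnnt1 by 5.21 ± 0.81 and Prox1 by 3.63 ± 0.18, and the test of E18.5 less adult, which called 44.8% of all genes, gave −4.60, −4.47 and −3.02 (edgeR adjusted p = 0.0011, 0.00038 and 3.6e-08). The fast genes Actn3 and Mybpc2 were lower in adult soleus by 9.91 ± 0.50 and by 7.37 on the log2 scale. All 9 slow genes called at E18.5 were called higher in adults, but so were all 17 genes of the slow list, called at E18.5 or not. Of the 19 called members of the matrix, tendon, cartilage, BMP and Wnt lists, 18 were tested in adults: 9 were called the same way, 1 the opposite way and 8 were not called. Fzd10 (2.32, edgeR adjusted p = 0.00014), Bgn (1.28, 2.2e-06) and Col11a1 (1.73, 0.013) were called higher in adult soleus too, whereas Kera (0.22, 0.76), Fmod (−0.37, 0.63) and Col2a1 (0.83, 0.093) were not called. Dkk3 was lower in adult soleus (−2.80), and so was Padi2, an arginine-modifying enzyme outside these lists (−2.52 against 1.05 at E18.5). Has2, Il33 and Cxcl12, a hyaluronan synthase, an alarmin cytokine and a chemokine named after their values were seen, were lower in soleus at E18.5 (−0.50, −0.80 and −0.34) and higher in adults (1.34, 1.08 and 0.87).

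**Figure D5:**
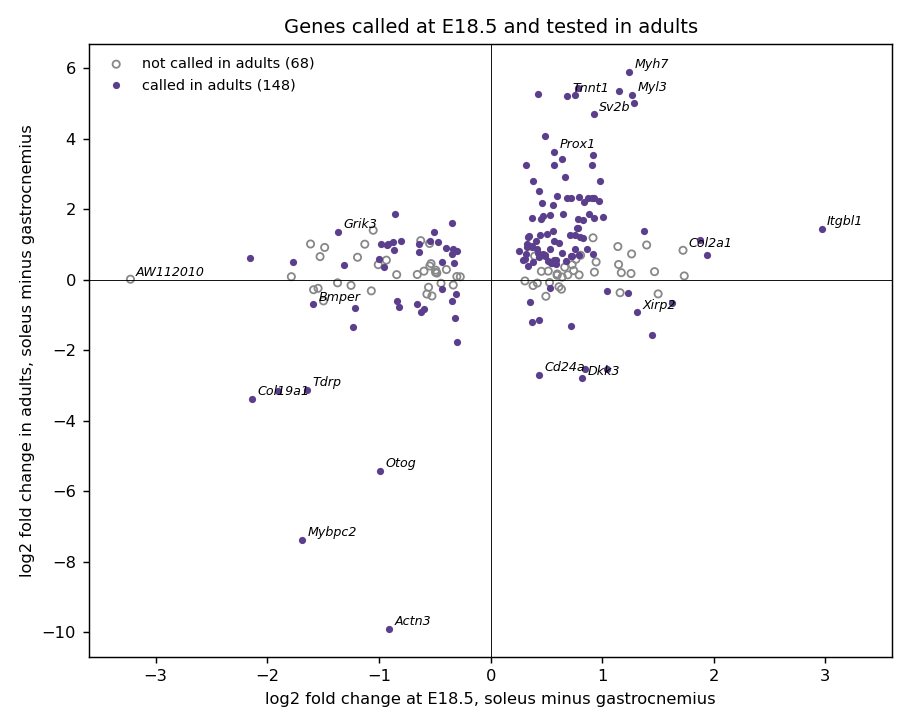
Log2 fold change of soleus against gastrocnemius at E18.5 (x axis) and in adults (y axis) for the 216 genes called at E18.5 and tested in adults; filled points passed in adults as well (148). Slow genes such as Myh7 lie high on the right, Actn3 and Mybpc2 low on the left, and Dkk3 and Cd24a low on the right.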

How the data were processed

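Messenger RNA of dissected muscle was sequenced after preparation with the Kapa mRNA HyperPrep kit, per the labels' protocols. The deposited counts were made by the authors with Trimmomatic 0.39.0, STAR 2.7.11 and featureCounts (Subread 2.0.6) on mm10, per the submitters' processing notes; of annotation, strand setting and shared reads these notes say nothing. The table has 27179 genes and also holds the gene length, another deposited column. Symbols came from the authors' deposited tables for 18780 genes and from RefSeq for 6501, and 1898 had none. Genes were filtered with filterByExpr (minimum count 10, minimum total 15), scaled by TMM and tested with edgeR 4.0.16 (quasi-likelihood F test, Benjamini-Hochberg adjustment, threshold 0.05), with muscle and collection as terms. The SE is the fold change divided by the root of F. DESeq2 1.42.0 and limma 3.58.1 (voom) were alternatives, run in R 4.3.3; lists and shares were computed in Python 3.11.15. The scripts were tested on simulated data.

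The labels say that the muscles came from the same mice, but the column names carry a date tag and no embryo number, so the tag was the block. Deviations of libraries with the same tag correlated by 0.083 to 0.318 (5 of 6 over 0.1), those of other pairs by −0.037 on average. No 2 libraries held the same RNA deposited again: over 30 pairs within a muscle, chi-square divided by its degrees of freedom was at least 10.2. A count of 3 is 0.096 to 0.142 CPM at these depths; such limits cover counting error only.

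Genes were named by rule: the 15 largest changes in each direction among called genes of the same direction in all 6 collections and a mean of at least 1 CPM, 20 fixed genes, up to 4 called members of each of 28 lists in each direction, and up to 5 per direction for each difference of differences. The members and lists were chosen with earlier results of these data known, so no list is independent evidence of its direction. Some genes that this rule names are not reported here. Alternatives were other scalings, filters, tools and samples, leaving out each collection, and, added later, fits within the date sets and without collections B and F.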

Additional observations from a re-analysis of the deposited data

Results flagged for a closer look

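Values far from the other collections were seen for 2 of the named genes, where chance alone would mark about 1 in 20: the log2 ratio of Pla1a was −2.43 in collection F, below the other 5, and that of Sema4d was 0.18 in collection D.

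The difference between muscles departed between the shared date and the others for Myh7 (−0.95), Myl3 (−1.47), Myh2 (1.33), Myh4 (1.37), Myh8 (1.42) and Sox6 (1.05), all by the edgeR test of the difference itself. Pla1a (−1.70) and Grik3 (−2.11) departed from the vastus pair; without collections A, C, E or F that test called no gene.

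Between E18.5 and adults, the edgeR test of the difference passed for the slow genes Myh7 (−4.60), Myl2 (−3.68), Myl3 (−3.93), Tnni1 (−4.77), Tnnt1 (−4.47), Tnnc1 (−4.59) and Prox1 (−3.02), all further apart in adults. It passed for the fast-fibre genes and regulators Myh4 (9.50), Actn3 (9.03), Pvalb (6.92), Mybpc2 (5.69), Sox6 (1.46) and Tbx15 (1.58), lower in adult soleus relative to E18.5. Myh2 (−2.61), Myh3 (−2.67), Myh8 (−1.13) and Bmper (−0.84) were relatively higher in adult soleus. The largest differences among genes called at E18.5 also included Cxcl9 (−7.64), Dgkk (−5.77), Gpr37 (−4.81), Otog (4.49), Dkk3 (3.65) and Padi2 (3.61). Cxcl9 and Gpr37 were under the count filter in the fit of adults alone, so their values rest on few adult counts. At this threshold 44.8% of all genes differed between the stages.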

How the results depend on the processing

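With the collection as a block 254 genes were called. The fit with no replicate block called 64 (34 higher, 30 lower), all among the 254, and the fit of all 24 E18.5 libraries 101, of which 81 were among them; there lower calls outnumbered higher ones (61 against 40). There were 414 calls with no low-count filter, 577 in DESeq2 and 429 in collections A, B and F alone. DESeq2 called all 254 and limma-voom 250. Leaving out a collection gave 94 to 259 calls: 94 without B, 110 without F and 123 without D. For the departure from the vastus pair, calls numbered 0 without the block, 43 in DESeq2, 8 with no low-count filter, 14 without collections B and F, and 0 to 8 with a collection left out. For the departure between dates, DESeq2 called 478, and leaving out a collection gave 22 to 243. Of 6 myosin shares, 2 passed unpaired and 0 as log2 ratios of CPM, where too few genes reached the smallest p for any to pass after adjustment. With a collection left out 0 passed, since 5 pairs allow no smaller p than 0.0625. Among 75 called named genes, 9 kept their call in every alternative other than the fits within date sets (AW112010, Bmper, Cntnap4, Fzd10, Grik3, Itgbl1, Myh1, Pla1a and Slitrk1) and 30 with each collection left out; 53 lost it without the block and 53 over 24 libraries. Signs turned for uncalled genes: Myh2 in C, D and E alone (0.036) and Tbx15 with upper-quartile scaling (−0.0031), without C (−0.087, against up to 0.073 without A), without E (−0.018) and in A, B and F alone (−0.17). The cause was not tested. The number of embryos, and for genes under about 1 CPM the depth, limit what could be called.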

Other observations

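Some called genes belong to no list and were named after their values were seen. Enzymes and signalling proteins of muscle fibres were higher in soleus at E18.5: Car3, a carbonic anhydrase abundant in slow muscle, by 0.91 ± 0.092, Smtnl1 by 0.93 ± 0.11, Homer2, a scaffold protein, by 0.91 ± 0.13 and Gas2 by 1.17 ± 0.11 (edgeR, all with adjusted p under 0.05). The first 3 were also called higher in adults, by 2.32, 2.30 and 3.24, while Gas2 was not (0.19, adjusted p = 0.63). Genes of excitation rose too: the sodium channel subunit Scn4b (1.04 ± 0.17) and the calcium channel Cacna1c (0.67 ± 0.089). Prg4, the lubricin of joint surfaces and tendon sheaths, rose by 1.38 ± 0.22 and by the same 1.38 in adults.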
